A study of Mus musculus with 21 samples.

Results

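The RNA of sorted β-cells from mice labelled WT, the reference group of a study of LDB1 and ISL1 in mature β-cells, was described without any contrast to the knockouts. The members were the 5 libraries labelled WT, out of 18 RNA libraries and 21 samples in all, and each library gave a value for 21913 genes. The study removed the LIM-domain adaptor LDB1 or the LIM-homeodomain factor ISL1 from adult β-cells and also mapped the binding of both proteins in islets; those samples were not used here. The WT mice were male, of mixed SV/129 and C57Bl/6 strain, with the genotype Rosa26LsLeYFP/LsLeYFP; MIP-CreERTm, that is, a YFP reporter that Cre switches on and a tamoxifen-dependent Cre driven by an insulin promoter. They were given tamoxifen at 150 µg/g in 5 gavages from postnatal day 28 and again from day 35, and cells were sorted at day 56. The group is therefore not untreated: it shares the Cre driver, the reporter and the exposure to tamoxifen with the knockouts, and what these do to the β-cell cannot be told apart from the baseline in these libraries. Islets were dispersed with trypsin, cells carrying the lineage mark were sorted into TRIzol, and total RNA was made into libraries with a low-input kit. The labels do not say whether the 5 libraries came from separate mice, so the spreads below are spreads between libraries.

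A β-cell is a professional secretory cell. It makes preproinsulin at the rough endoplasmic reticulum (ER), folds it and forms its disulphide bonds there, passes it through the Golgi into dense-core granules, cuts it to insulin with prohormone convertases and carboxypeptidase E, and releases it when glucose metabolism closes potassium channels and opens calcium channels. Mature β-cells are also known for keeping some widely used metabolic genes, the disallowed genes, at very low levels. Values are the authors' deposited log2 values, one per gene and library, not divided by gene length. A rank is the place of a gene's median among all 21913 genes, so ranks compare deposited values and not numbers of molecules, and a gene at 0 is a gene listed at 0, since the table holds no read counts.

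The sorted cells carried the markers of β-cells. All 5 defining β-cell genes fixed for the check lay among the 8 highest medians. Iapp, which encodes the amyloid peptide that is released with insulin, was at 15.99 in replicate 1 and at 18.29 in each of replicates 2 to 5. Ins2, the conserved insulin gene, was at 18.29 in replicate 1 and 17.98 in the other libraries. Ins1, the rodent-specific insulin gene, was at 17.01 in replicate 1 and 15.99 in the others. The order of the 3 leading genes was therefore the same in replicates 2 to 5 and different in replicate 1, where both insulin genes stood above Iapp. Ins1 and Ins2 are close copies of each other, and the sources used here do not say how reads that fit both were counted. Chga, the granin chromogranin A, lay between 15.42 and 15.66, and G6pc2, the islet glucose-6-phosphatase, between 14.37 and 15.02.

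**Figure D1:**
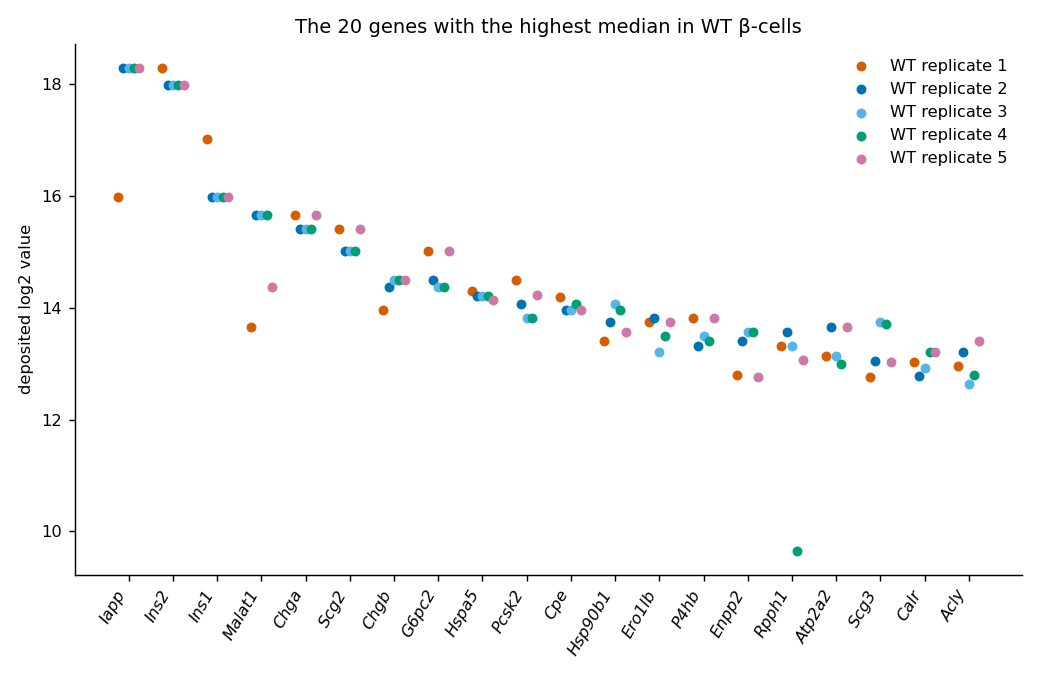
Deposited log2 values (vertical axis) of the 20 genes with the highest median, with 1 point per WT library. Replicate 1 stood below the others for Iapp (15.99 against 18.29) and replicate 4 for Rpph1 (9.65 against a median of 13.31), while most other genes kept within about 1 log2 unit.

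Replicate 1 also carried pancreatic exocrine RNA. The acinar list, 30 digestive enzymes and other products of acinar cells, had a mean of 10.36 in replicate 1 and of 1.09, 1.56, 1.44 and 1.59 in replicates 2 to 5. Pnlip, pancreatic lipase, was at 14.07 in replicate 1 and at 3.74, 4.60, 4.15 and 4.37 in the others. Prss2, a trypsinogen, was at 12.70 in replicate 1 and between 1.82 and 3.18 elsewhere. No library overlapped with replicate 1 for these genes. In all, 258 genes stood at least 1 log2 unit above each of the other libraries in replicate 1, 30 of them on the acinar list. At least 5 above stood 41 genes, 27 of them on the list. Of the 258 genes 167, and of the 41 genes 13, had a median of 0 in replicates 2 to 5. Whether the genes outside the list came from acinar cells was not tested. The medians hardly moved: the 20 leading genes were the same with and without replicate 1, and 99 of the leading 100 and 475 of the leading 500 were shared. Ranks below are over all 5 libraries unless stated. Taken as 2 to the power of the log2 value minus 1, the lowest step was smallest in replicate 1 (0.714). Replicate 5 (0.924), replicates 2 and 3 (1.24 each) and replicate 4 (1.51) followed. In replicates 1 to 5, 14059, 13554, 13552, 13353 and 14005 genes were above 0. The step was smaller where more genes were above 0, so step and gene count are not separate measures. Neither gives the depth of a library. The part of depth in the differences between libraries was not tested.

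**Figure D2:**
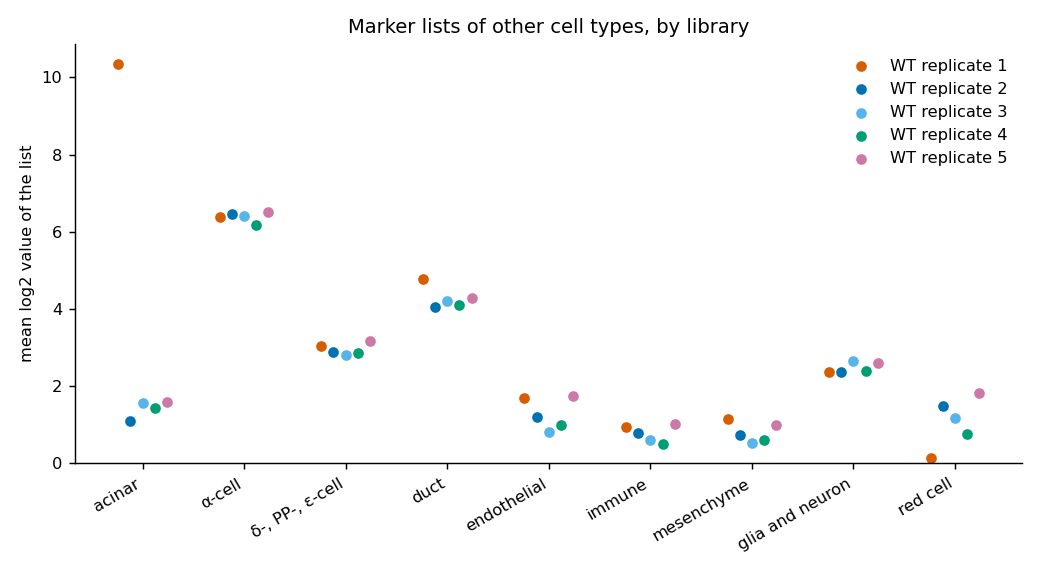
Mean log2 value (vertical axis) of 9 marker lists of other cell types, with 1 point per WT library. The acinar mean was 10.36 in replicate 1 and between 1.09 and 1.59 in replicates 2 to 5, while the other lists kept within about 2 log2 units between libraries.

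Acinar promoters often held a TATA box. Of 24 promoter windows of the acinar list, 12 (50.0%) held TATAAA, the core letters of a TATA box, on either strand. The share was 12.4% over all 32851 windows and 4.84% for genes with a median of 10 or more. For genes not above 0 in any library it was higher, 23.1%. The sequence of Pnlip is shown because that gene was the highest of the list in replicate 1. The 250 bases before its RefSeq gene start (GRCm38.p6) are printed with TATAAA in capitals, which begins 30 bases before the start. A match of letters describes the window and does not show a working site.
Pnlip, chr19:58670115-58670364, + strand: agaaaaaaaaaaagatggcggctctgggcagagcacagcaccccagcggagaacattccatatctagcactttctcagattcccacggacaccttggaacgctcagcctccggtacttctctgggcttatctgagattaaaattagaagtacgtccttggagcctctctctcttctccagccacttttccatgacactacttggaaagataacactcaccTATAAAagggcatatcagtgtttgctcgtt

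Over all genes, 12196 (55.7%) were above 0 in all 5 libraries, 8748 (39.9%) had a median of 5 or more, 470 (2.14%) had a median of 10 or more, and 6391 (29.2%) were not above 0 in any library. Another 3326 genes (15.2%) were above 0 in 1 to 4 libraries. The median over all genes was 3.18. The RNA was concentrated in few genes. The 3 genes with the highest values, Iapp, Ins1 and Ins2 in every library, held 14.2% of the summed linear value in replicate 1 and 17.3% in each of the others, the leading 100 held 32.3% to 34.8%, and the leading 1000 held 60.2% to 61.5%. Since the top values sit on a ladder that the libraries share, these shares are largely fixed by the normalization and do not measure how alike the libraries were. Of the 20 leading genes, 14 belonged to the lists of granule cargo, prohormone processing or ER entry and folding. The remaining ones were Malat1, a nuclear long noncoding RNA, Rpph1, the RNA of ribonuclease P, G6pc2, Enpp2, which encodes autotaxin, Atp2a2, the calcium pump SERCA2 of the ER, and Acly, ATP citrate lyase.

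**Figure D3:**
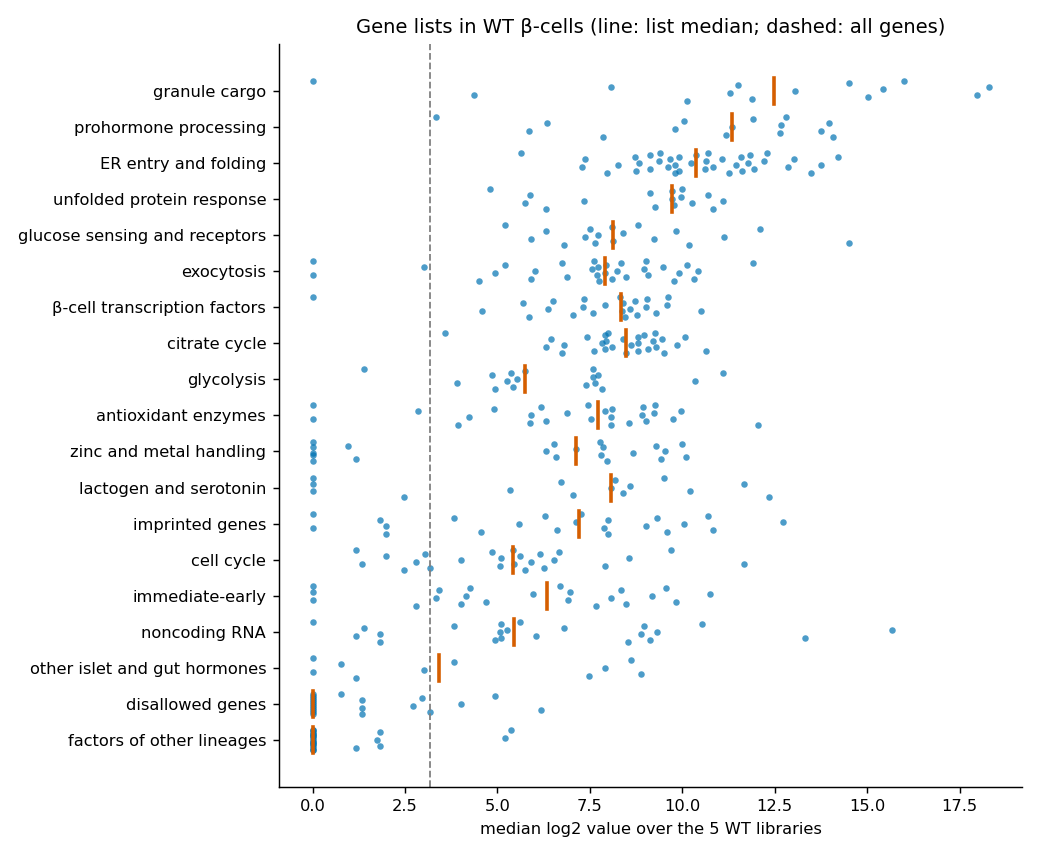
Median log2 value over the 5 WT libraries (horizontal axis) of every member of 19 gene lists, with 1 point per gene. The orange line is the list's median, from 12.47 for granule cargo to 0 for the disallowed genes and the factors of other lineages, and the dashed line is the median of all genes, 3.18.

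Granule cargo was the list with the highest median, 12.47. Of 14 members, 13 were above 0 in all 5 libraries and 11 had a median of 10 or more. Behind the hormones came the granins, acidic proteins that help granules to form. Chga was at 15.66, 15.42, 15.42, 15.42 and 15.66 in replicates 1 to 5. Scg2, secretogranin II, was at 15.42, 15.02, 15.02, 15.02 and 15.42. Chgb, chromogranin B, was at 13.96, 14.37, 14.50, 14.50 and 14.50, so it was lowest in replicate 1, where Chga and Scg2 were at their highest. Scg3, which ties granins to the granule membrane, spread more, from 12.76 in replicate 1 to 13.75 in replicate 3. Scg5, the 7B2 chaperone of PC2, had a median of 11.89, Resp18 11.50, and Nucb2, the precursor of nesfatin, 11.30. Ucn3, urocortin 3, a hormone that marks mature mouse β-cells, was at 10.51, 10.03, 10.06, 10.12 and 10.46, with rank 408. Not all cargo was abundant. Pcsk1n, the proSAAS inhibitor of PC1/3, was at 8.68, 7.66, 8.08, 5.45 and 8.21, lowest in replicate 4. Vgf, a neuroendocrine granin-like protein, had a median of 4.36, and Npy, neuropeptide Y, was listed at 0 in 3 libraries and reached 3.33 in replicate 3.

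The enzymes that mature the cargo were nearly as high, with a list median of 11.34 and 10 of 15 members at 10 or more. Pcsk2, the convertase PC2, was at 14.50, 14.07, 13.81, 13.81 and 14.24. Pcsk1, the convertase PC1/3, was at 12.48, 12.80, 12.80, 12.86 and 12.73. Cpe, carboxypeptidase E, which trims the basic residues left by the convertases, was at 14.19, 13.96, 13.96, 14.07 and 13.96. Pcsk2 was highest in replicate 1 and Pcsk1 lowest there. Ero1lb, the oxidase that drives disulphide formation in pancreatic cells, ran from 13.20 to 13.81. Pam, the amidating enzyme that Iapp needs, ran from 12.42 to 12.77, and Slc30a8, the granule zinc transporter ZnT8, from 12.24 to 12.70. Furin, the general convertase of the Golgi, had a median of 5.85 and rank 7254. Slc18a2, the vesicular monoamine transporter VMAT2, was the lowest member at 3.33.

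Several genes of granule biosynthesis share a motif close to their start. The palindrome TGACGTCA, the cAMP response element (CRE), was searched on both strands of the 250 bases before each RefSeq gene start. It stood in 3 of 24 windows of the granule cargo and processing lists (12.5%) and in 5 of 95 windows of the 100 leading genes (5.26%), against 1.55% of all windows. The 3 were Scg2, Chgb and Pcsk1, and the other leading genes with it were Peg3 and Prkar1a. The sequences are printed because they carry the shared motif, with the CRE in capitals. It begins 68, 72 and 78 bases before the start of Scg2, Chgb and Pcsk1. Ins2 had no window in the table. In Ins1 the capitals mark GCCATCTG, the E-box known as the E1 box of insulin genes, 86 bases before the start. On either strand 1.11% of all windows hold these letters, and 1.54% of the windows of genes with a median of 10 or more. So do 4 of 95 windows of the 100 leading genes (4.21%). Beside Ins1 these are windows of Calr, Hdlbp and Hsp90b1, so the letters are not particular to insulin genes.
Scg2, chr1:79440027-79440276, - strand: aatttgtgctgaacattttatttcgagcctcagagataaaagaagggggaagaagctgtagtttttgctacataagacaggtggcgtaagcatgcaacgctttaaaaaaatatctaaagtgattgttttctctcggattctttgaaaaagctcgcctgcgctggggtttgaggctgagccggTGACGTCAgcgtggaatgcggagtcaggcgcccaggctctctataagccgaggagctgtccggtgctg
Chgb, chr2:132781392-132781641, + strand: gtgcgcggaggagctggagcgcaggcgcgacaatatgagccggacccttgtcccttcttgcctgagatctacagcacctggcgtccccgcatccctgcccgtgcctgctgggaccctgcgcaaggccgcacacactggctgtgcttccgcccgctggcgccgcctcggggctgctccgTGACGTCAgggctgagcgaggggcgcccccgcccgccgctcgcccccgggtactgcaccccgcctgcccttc
Pcsk1, chr13:75089607-75089856, + strand: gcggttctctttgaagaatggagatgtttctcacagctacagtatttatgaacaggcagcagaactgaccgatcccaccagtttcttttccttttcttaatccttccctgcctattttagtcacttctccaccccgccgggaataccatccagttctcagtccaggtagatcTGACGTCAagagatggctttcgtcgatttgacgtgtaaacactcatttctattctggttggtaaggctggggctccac
Ins1, chr19:52264047-52264296, + strand: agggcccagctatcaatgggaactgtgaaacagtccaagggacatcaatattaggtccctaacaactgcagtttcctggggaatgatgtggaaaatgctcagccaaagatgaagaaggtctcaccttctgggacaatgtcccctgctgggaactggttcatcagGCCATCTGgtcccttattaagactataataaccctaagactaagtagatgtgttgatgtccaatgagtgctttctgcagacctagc

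Of the ER entry and folding list, 21 of 39 members had a median of 10 or more, against 2.14% of all genes. It was the longest gene list, and the shares were larger for granule cargo (11 of 14) and prohormone processing (10 of 15). All 39 members found were above 0 in every library with a median of 5 or more, and the list median was 10.36. The chaperones led. Hspa5, the ER chaperone BiP, was at 14.30, 14.21, 14.21, 14.21 and 14.13, with rank 9. Hsp90b1, GRP94, was at 13.40, 13.75, 14.07, 13.96 and 13.57. P4hb, protein disulphide isomerase, was at 13.81, 13.31, 13.49, 13.40 and 13.81. The lectin chaperones Calr and Canx had medians of 13.03 and 12.86. The translocon and signal peptidase parts were spread over a wide range. Ssr3 of the translocon-associated complex had a median of 11.63 and Spcs3 of signal peptidase 11.58, while Sec61g, the small subunit of the Sec61 channel, was the lowest member at 5.64. Srp54a, a subunit of the signal recognition particle, was at 7.79, 7.36, 7.64, 4.39 and 7.21, and replicate 4 lay far below the rest.

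Members of the unfolded protein response, which adjusts folding capacity to load, were also well above the median of all genes, at a list median of 9.71 with 16 of 16 members above 0 in all libraries. Atf4, the factor of its PERK arm, was at 11.30, 11.13, 10.97, 10.57 and 11.11. Xbp1, the factor spliced by IRE1, ran from 10.61 to 11.36, and Sel1l, an adaptor of ER-associated degradation, from 10.41 to 10.87. Of the genes known as markers of terminal stress, Ddit3, which encodes CHOP, had a median of 7.35. Trib3, a pseudokinase induced with Ddit3, was the lowest of the list at 4.81. Low levels were not particular to these markers, since the members Derl3 and Syvn1 also stood below Ddit3, at 5.87 and 5.74. The table gives total RNA per gene, so spliced Xbp1 was not measured.

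The ER stress element (ERSE), CCAAT and CCACG with 9 bases of any kind between them, is the site where NF-Y and ATF6 are known to bind in promoters of ER chaperones. On either strand it was present in 37 of all 32851 windows (0.113%) and in 1.32% of the windows of genes with a median of 10 or more. It stood in 6 of 95 windows of the 100 leading genes (6.32%) and in 7 of 33 windows of the ER list (21.2%). The 6 leading genes were Hspa5, Hsp90b1, Calr, Canx, Dnajc3 and Pdia6. None of the 33 windows of the ER list held TATAAA, and 22 (66.7%) held the GC box GGGCGG, against 56.9% of the windows of genes with a median of 10 or more and 32.7% of all windows. The promoters of the 3 leading chaperones with the element are printed with the ERSE in capitals. Hspa5 has it 65 bases before the start, Calr at 162 bases on the reverse strand, and Hsp90b1 at 212 bases and again, reversed, at 107 bases. The shares describe these windows, and which factor was bound was not measured.
Hspa5, chr2:34771840-34772089, + strand: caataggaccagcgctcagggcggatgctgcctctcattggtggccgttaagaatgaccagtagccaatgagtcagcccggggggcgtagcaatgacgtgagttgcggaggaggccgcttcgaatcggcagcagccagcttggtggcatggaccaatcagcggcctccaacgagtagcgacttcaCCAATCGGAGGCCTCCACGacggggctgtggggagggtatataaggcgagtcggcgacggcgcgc
Hsp90b1, chr10:86705445-86705694, - strand: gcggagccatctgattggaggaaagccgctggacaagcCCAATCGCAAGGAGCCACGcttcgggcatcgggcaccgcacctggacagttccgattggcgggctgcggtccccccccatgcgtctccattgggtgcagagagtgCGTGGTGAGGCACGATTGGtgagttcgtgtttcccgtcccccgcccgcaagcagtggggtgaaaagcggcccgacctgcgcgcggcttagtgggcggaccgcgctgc
Calr, chr8:84846932-84847181, - strand: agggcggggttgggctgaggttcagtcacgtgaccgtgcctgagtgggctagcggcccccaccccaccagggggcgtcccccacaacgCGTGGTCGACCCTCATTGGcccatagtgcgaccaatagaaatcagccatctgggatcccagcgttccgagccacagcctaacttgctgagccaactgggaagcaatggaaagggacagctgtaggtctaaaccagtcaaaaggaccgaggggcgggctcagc

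Genes for the sensing of glucose and for receptors that tune secretion were all present. Each of the 18 members had a median of 5 or more and was above 0 in every library, and the list median was 8.12. G6pc2, which removes the phosphate from glucose-6-phosphate, was at 15.02, 14.50, 14.37, 14.37 and 15.02. Slc2a2, the glucose transporter GLUT2, was at 12.11, 12.37, 11.97, 11.85 and 12.40, with rank 39. Of the KATP channel, Abcc8, the sulphonylurea receptor, ran from 10.72 to 11.42, and Kcnj11, the pore, from 7.86 to 8.30. Both were lowest in replicate 4 and highest in replicate 5. Cacna1d, an L-type calcium channel, had a median of 8.81, against 7.63 for Cacna1c. Among receptors, Glp1r for the incretin GLP-1 had 10.18, Sstr3 for somatostatin 9.82 and Gipr for GIP 7.38. Trpm2, a cation channel, was the lowest member at 5.19.

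For exocytosis, 29 of 31 members were above 0 in all libraries, with a list median of 7.92. Syt13, an atypical synaptotagmin, led at 11.92, 11.98, 11.45, 11.73 and 12.05. Cadps, which primes granules, had a median of 10.43 and Rab27a, a granule GTPase, 10.31. Among the calcium sensors with a known part in insulin release, Syt7 had a median of 9.08 and Syt9 of 5.19. The core SNARE genes were not among the highest, with Snap25 at 9.03, Vamp2 at 6.75 and Stx1a at 4.49. Doc2b, another calcium sensor, was the lowest above 0, at 3.01. Cplx1, which is known from synapses, was listed at 0 in all 5 libraries, while Cplx2 had a median of 9.91.

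Transcription factors of the β-cell sat well below the cargo. Of 24 members found, 23 were above 0 in all libraries and 22 had a median of 5 or more, with a list median of 8.34 and 1 member, Pax6, at 10 or more. Pax6, a paired-box factor of all endocrine islet cells, was at 10.44, 10.51, 10.58, 10.89 and 10.51. St18 had a median of 9.60 and Isl1, the target of one of the knockouts of the study, was at 9.58, 9.66, 9.61, 9.36 and 9.53. Pdx1, the factor that directs insulin and Slc2a2 expression, was very steady, at 8.38, 8.37, 8.33, 8.18 and 8.41. Nkx6-1, which keeps β-cells distinct from other islet cells, ran from 7.08 to 7.43. Ldb1 itself, the adaptor that the study removes, was at 7.60, 7.59, 7.57, 7.11 and 7.66, with rank 3652. Mafa, which marks maturity, did not behave like these. It was at 8.09, 7.92 and 8.05 in replicates 1, 2 and 5 but at 6.54 and 5.70 in replicates 3 and 4, a span of more than 2 log2 units. Foxa1 was listed at 0 in all 5 libraries, while its relative Foxa2 had a median of 8.32.

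Factors of other lineages formed the opposite pattern, with a list median of 0. Of 23 members, 11 (47.8%) were not above 0 in any library, against 29.2% of all genes. These 11 were Irx1 of α-cells, the pluripotency factor Pou5f1, the muscle factors Myod1 and Myf5, the blood factors Gata1 and Sfpi1, the gut factors Cdx1, Cdx2 and Barx1, Nkx2-1 of lung and thyroid, and Tbx5 of heart. Gata6 was measured in every library, at 5.13, 5.07, 5.19, 5.45 and 5.45. Neurog3, the endocrine progenitor factor, was at 0 in 2 libraries and at 1.75 to 2.46 in the others. Gata4 was the lowest with a median above 0, at 1.16.

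Of the list of other islet and gut hormones, 6 of 10 members were above 0 in all libraries and 4 had a median of 5 or more. Both shares were near those of all genes, 55.7% and 39.9%. Gcg, glucagon, was at 9.21, 7.47, 8.87, 8.77 and 9.07. Sst, somatostatin, was at 9.41, 7.84, 8.17, 8.60 and 8.97. Ppy, pancreatic polypeptide, was at 8.40, 7.47, 7.92, 7.19 and 8.40, and Pyy, peptide YY, at 8.10, 6.73, 7.02, 7.48 and 7.71. Gcg, Sst and Pyy were lowest in replicate 2 and all 4 were highest, or level with the highest, in replicate 1. Defining factors of those cells were low: Irx2 of α-cells had a median of 1.82 and Hhex of δ-cells 1.83, and Ghrl, ghrelin of ε-cells, 1.16. Pomc and Penk, peptide precursors best known from pituitary and brain, had medians of 3.83 and 3.01. In bulk RNA, fewer cells of a type and less RNA per cell cannot be told apart, and the share of other islet cells in the sort was not tested. The α-cell list as a whole had means of 6.18 to 6.51, of which the 3 highest members, Tmem27 (11.91), Sphkap (11.78) and Ttr (11.05), are also known from β-cells.

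Markers of cells outside the islet were at or near 0 in most cases. Of the endothelial list, 0 of 11 members had a median of 5 or more and the library means ran from 0.81 to 1.75, with Pecam1 at a median of 1.32, Kdr at 1.98 and Cdh5 and Plvap at 0. Among immune markers the means ran from 0.51 to 1.02, with Ptprc, the pan-leukocyte CD45 gene, at 2.64, Cd68 at 1.32 and Csf1r at 0. Mesenchyme means ran from 0.54 to 1.15, with Col3a1 at 2.46 and Col1a1 at 0, and red cell means from 0.13 to 1.81, with Hbb-b1 at 1.16 and Alas2 at 1.98. The duct list gave a mixed picture. Its defining members Krt19 and Sox9 had medians of 0.94 and 0, Spp1 was at 6.15 in replicate 1 and at most 4.81 elsewhere, and Cftr ranged from 3.51 to 6.30, while the simple-epithelium keratins Krt7 (9.47) and Krt18 (9.42) and Krt8 (7.65) were well up. Duct means ran from 4.04 in replicate 2 to 4.78 in replicate 1, the library with acinar RNA. In the glia and neuron list 4 of 13 members had a median of 5 or more, against 39.9% of all genes. Elavl4 (8.35) and Mbp (8.13) led that list, while Sox10 had a median of 0.

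Genes of distant tissues served as a check on the low end. Not above 0 in any library were 7 of 13 members of the liver list (53.8%), 6 of 11 of the muscle list (54.5%) and 9 of 14 of the germ-cell list (64.3%). The share over all genes was 29.2%, and the retina list, with 5 of 14 (35.7%), was near it. Alb, albumin, reached at most 1.16. The exceptions with a median of 5 or more were Apob (7.16), the apolipoprotein of chylomicrons and VLDL, and Gnat2 (7.35), the cone transducin gene. The mice were male by the labels. The Y-linked genes Ddx3y, Uty, Eif2s3y and Kdm5d had medians of 9.55, 9.31, 8.45 and 7.36, and Xist ranged from 0 to 1.98. Sry, Zfy1 and Zfy2, which are best known from the fetal gonad and the testis, were listed at 0.

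The disallowed genes, taken from the literature on islets, were low as a list, with a median of 0 (up to 0.69 with a library left out) and 6 of 21 members above 0 in all libraries. Ldha, lactate dehydrogenase A, was listed at 0 in replicates 2 to 5 and at 3.31 in replicate 1, the library with acinar RNA. Hk1, a hexokinase of high glucose affinity, was at 0 in 4 libraries and at 0.94 in replicate 5. Acot7 was at 0 in all 5. At the other end Oat and Mgst1 had medians of 4.94 and 4.02, and Mgst1 spread from 2.27 in replicate 2 to 5.56 in replicate 4. Values at 0 must be read with care, because Gapdh, which every cell uses, was at 2.83, 4.48, 4.36, 3.55 and 3.91, with rank 10234. Gapdh has many processed pseudogenes, whose reads can fit several places, and the counting step is not known here.

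In glycolysis, 16 of 17 members were above 0 in all libraries, with a list median of 5.74. Pkm2, pyruvate kinase, was at 11.30, 11.11, 11.03, 10.71 and 11.24, and Aldoa, aldolase A, at 10.87, 10.27, 10.34, 9.97 and 10.57. Pfkm, a phosphofructokinase, came next with 7.83, and the muscle form Pgam2 was the lowest at 1.39. Genes of pyruvate entry, the citrate cycle and its shuttles were higher, with a list median of 8.47 and 28 of 29 members at 5 or more. Sdha, of succinate dehydrogenase, ran from 10.42 to 10.75. Mdh1, cytosolic malate dehydrogenase, had a median of 10.07, and Pdha1, of pyruvate dehydrogenase, 9.86. Pcx, pyruvate carboxylase, which is prominent in β-cells, had 8.79, Gpd2 of the glycerol phosphate shuttle 9.46, and Me3 was the lowest at 3.59.

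Antioxidant enzymes had a list median of 7.72, and 24 of 26 members were above 0 in all libraries. Txnip, the thioredoxin inhibitor known to respond to glucose, led at 12.27, 12.46, 12.06, 10.12 and 11.80, with replicate 4 far below the rest. Prdx6 followed at 9.98 and Txnrd1, thioredoxin reductase, at 9.74. Gpx7 was the lowest above 0 at 2.86, and Gpx8 and Sod3, an ER peroxidase and the extracellular superoxide dismutase, were listed at 0 in all 5. Catalase was not analysed here. Zinc and metal genes beside Slc30a8 had a list median of 7.11. The highest were Slc39a7 (10.10), which releases zinc from the ER, and the transporters Slc30a5 (9.99) and Slc30a7 (9.52) of the secretory route, and Slc30a3, known from synaptic vesicles, was at 0 in all libraries. The metallothioneins Mt1 and Mt2 had the same order of libraries: Mt1 was at 9.30, 8.82, 10.20, 7.81 and 9.43, and Mt2 at 7.97, 7.67, 9.28, 6.22 and 8.20, both highest in replicate 3 and lowest in replicate 4.

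Genes linked to lactogen signalling and serotonin had a list median of 8.07, against 3.18 for all genes, and 11 of 15 members above 0 in all libraries. Prlr, the prolactin receptor, was at 11.83, 12.56, 12.56, 12.26 and 12.33, with rank 32. Ddc, aromatic amino acid decarboxylase, had a median of 11.67, and Ghr, the growth hormone receptor, 10.20. Tph1, the serotonin-making tryptophan hydroxylase known to rise with lactogens in β-cells, was at 9.52, 8.90, 9.73, 9.63 and 9.39. Htr2b was the lowest above 0 at 2.46, and Htr3a was listed at 0. All 18 RNA libraries of the series carry the same Cre driver, so a level without it was not measured.

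In the cell cycle list 15 of 24 members had a median of 5 or more, against 39.9% of all genes. Ccnd2, the main D-type cyclin of mouse β-cells, was at 11.53, 11.83, 11.67, 11.78 and 11.67, and Ccnd1 and the inhibitor Cdkn1b had medians of 9.71 and 8.57. Mki67, the proliferation marker, was at 5.42, 5.41, 4.90, 4.46 and 5.06, Top2a and Ccna2 of the S and G2 phases had medians of 6.54 and 6.25, and the mitotic genes Ccnb1, Birc5 and Aurkb had 3.18, 2.80 and 1.32. Cdk6 was the lowest at 1.16. Immediate-early genes, which rise within minutes of a stimulus and can rise during the dispersal of tissue, had a list median of 6.33. Btg2 was at 9.83 and Fos at 9.50, 9.55, 9.78, 8.98 and 9.70, while Egr3 and Nr4a3 were at 0 in all libraries and Egr2 was low at 2.80. Hspa8, the constitutive heat-shock protein kept in the same list, had the highest value, 10.76. Jun, Jund and Junb were all lowest in replicate 4, at 8.38, 7.39 and 5.39.

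Noncoding RNA spanned the whole scale. Malat1 was at 13.66, 15.66, 15.66, 15.66 and 14.37, lower in replicates 1 and 5, the libraries with the smallest lowest steps. Meg3 and Kcnq1ot1, both imprinted long RNAs, were likewise lowest in replicates 1 and 5: Meg3 was at 6.95, 9.30, 9.74, 9.42 and 8.01, and Kcnq1ot1 at 6.55, 8.89, 9.11, 9.15 and 7.25. Rian, which lies in the same imprinted cluster as Meg3, did not share it and ran from 10.47 to 10.96. Rpph1 was at 13.31, 13.57, 13.31, 9.65 and 13.07. Among imprinted genes, Peg3, a zinc-finger gene, led with 12.73, followed by Gnas, the stimulatory G protein, with 10.82, and Igf2r with 10.70. Peg10 was the lowest above 0 at 1.82, and Dlk1 and Phlda2 were listed at 0 in all libraries.

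Families taken by symbol differed widely in level. Coat proteins of the early secretory route were high, with a median of 8.91 for 24 COPI and COPII genes (Copb2 highest, 11.88) and of 9.39 for 10 Tmed cargo receptors (Tmed7, 10.54). Translation initiation factors had 7.71 over 56 genes (Eif4a2, 12.03), tRNA synthetases 7.78 over 34 (Sars, 11.24), the proteasome 7.68 over 49 and complex I of the respiratory chain 7.27 over 42. Ribosomal proteins came out lower, 6.68 over 74 genes with Rpl4 on top at 11.43, and many of them have processed pseudogenes. Among channels, symbols starting with Kcn, which include the antisense RNA Kcnq1ot1, had 25 of 91 members not above 0 in any library, a share (27.5%) near the 29.2% of all genes, and 23 at 5 or more. The highest of these was Kcnmb2 (9.61), a subunit of calcium-activated channels. Of 14 sodium channel genes 3, led by Scn9a at 9.53, were at 5 or more, against 39.9% of all genes. Of the clustered protocadherins, 38 of 54 members were above 0 in all libraries with a median of 5 to under 10, against 37.8% of all genes. Their isoforms share constant exons, so the counts of single members are uncertain.

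**Figure D4:**
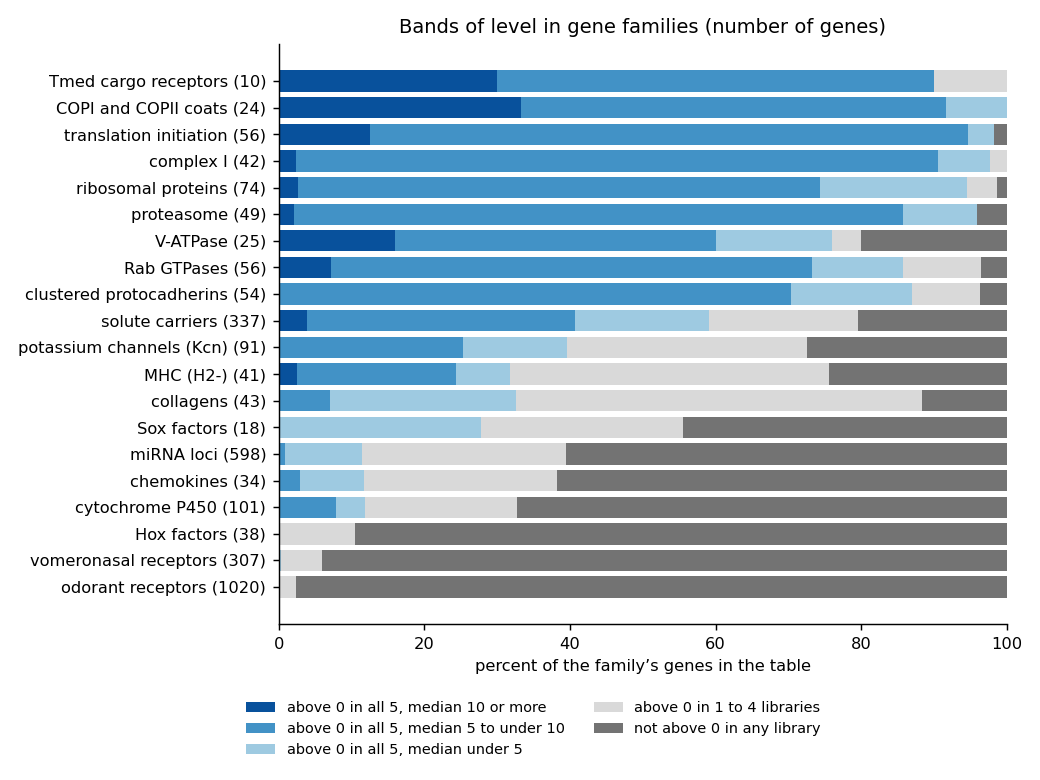
Percent of each family's genes (horizontal axis) in 5 bands of level over the 5 WT libraries, with the number of genes in brackets. In the coat family 22 of 24 genes and in the Tmed family 9 of 10 had a median of 5 or more, and of the odorant receptors 996 of 1020 were not above 0 in any library.

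At the low end, 996 of 1020 odorant receptors, 289 of 307 vomeronasal receptors, 34 of 38 Hox factors, 45 of 49 keratin-associated proteins, 25 of 26 prolactin-family genes and all 18 major urinary protein genes were not above 0 in any library. Each family is far above the 29.2% of all genes. Exceptions were few. Vmn2r29 had a median of 4.32 and Tas1r3, the shared subunit of sweet and umami taste receptors, 3.78. In the defensin family 55 of 56 genes were at 0 throughout, while Defb1 was at 9.89, 9.61, 10.58, 10.17 and 9.75. Of 44 forkhead genes 22 were at 0 in all libraries, with Foxa2 highest. Among 34 chemokines only Ccl28 (7.41) reached 5, and among 17 Wnt genes only Wnt4 (8.04). For 598 miRNA loci 362 were at 0 in all libraries, and the highest were Mir3064 (7.77) and Mir704 (7.61), which overlap Ddx5 and Pdia4 in RefSeq. Mir375, the abundant islet miRNA, was at 2.23 in replicate 3 and 0 elsewhere. A long-RNA library does not measure mature miRNAs.

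Most genes kept their order between libraries. Spearman's rank correlation across all genes, which are not independent replicates, lay between 0.960 (replicates 1 and 4) and 0.974 (replicates 2 and 5). Among the 8748 genes with a median of 5 or more the lowest pair was again replicates 1 and 4 (0.927), and the highest was replicates 1 and 5 (0.974). The SD of a gene over the 5 libraries had a median of 0.26 log2 units, with 0.13 and 0.47 at the 10th and 90th percentiles, and 37 genes had an SD of 1 or more. Spread fell with level, from a median SD of 0.32 at levels of 5 to 6 to 0.20 at 10 to 12, and was 0.23 at 12 or more. Replicate 1 was the library farthest from the median in 2671 of these genes, replicate 4 in 1923 and replicate 5 in 975. Without replicate 1 the median SD was 0.23.

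**Figure D5:**
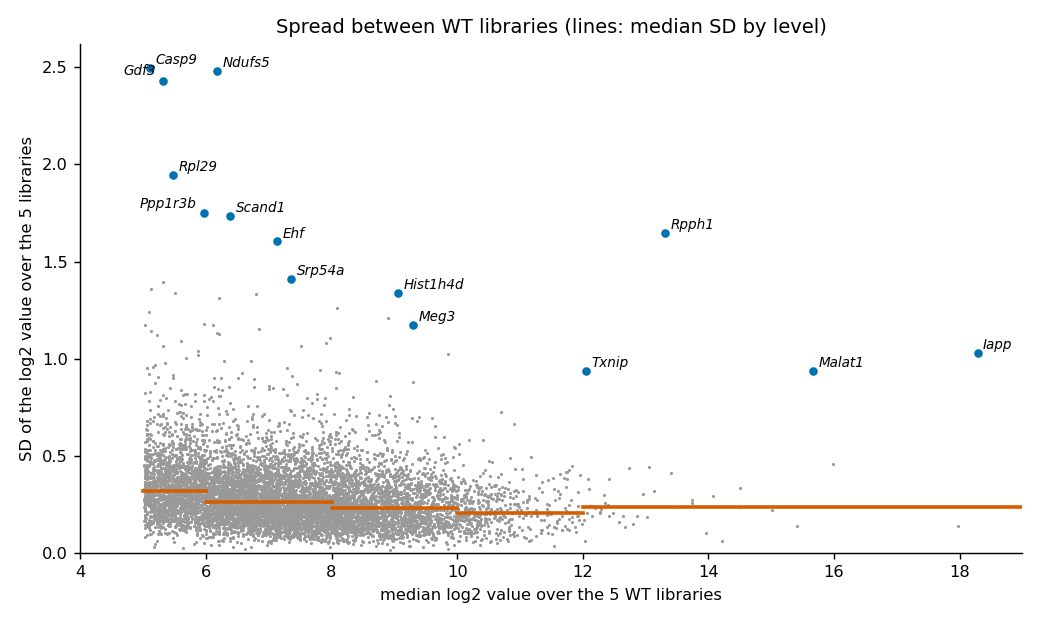
SD over the 5 WT libraries (vertical axis) against the median log2 value (horizontal axis) of genes with a median of 5 or more, with 1 point per gene and orange lines for the median SD by level. The 10 most variable genes for their level and 4 others are named; Casp9, Ndufs5 and Gdf3 had an SD above 2 while the median SD was 0.26.

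Each gene's SD was divided by the median SD of the 500 genes nearest in level. The steadiest genes by this ratio were Scamp1, a carrier membrane protein, which lay between 8.92 and 8.95, and Tbcel, Rpap1, Srrm3 and Mtmr7. Over replicates 2 to 5 Ins1, Ins2 and Iapp had an SD of 0, because each held the same rank and so the same rung of the shared ladder in all 4 libraries. That value shows an equal order and not an equal amount. The most variable genes differed in which library stood apart. Ndufs5, a small subunit of complex I, was at 6.39, 1.16, 6.18, 6.32 and 2.55. Casp9, caspase 9, was at 10.67 in replicate 1 and 4.98 to 5.31 in the others, and it overlaps the acinar gene Cela2a in RefSeq, which was at 13.49 in replicate 1. Rpl29 was at 1.32 in replicate 1 and 4.90 to 6.07 elsewhere. Ehf, an epithelial ETS factor, was at 5.01, 7.13, 9.08, 8.58 and 6.86, and Ppp1r3b, a glycogen-targeting subunit, at 5.44, 2.80, 6.48, 5.96 and 7.46.

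Another set was low in replicate 4, the library with the largest lowest step. Gdf3 was listed at 0 there and at 5.11 to 5.82 in the others. Scand1 was at 3.24 against 6.04 to 7.93, the histone gene Hist1h4d at 6.33 against 8.84 to 9.57, and Gm15441 at 7.95 against 9.75 to 10.57. Rpph1, Txnip, Pcsk1n and Srp54a, given above, were lowest there too. The MHC class I gene H2-K1 was at 8.96 in replicate 4 and 10.16 to 10.41 in the rest. By list, the median ratio was highest for immediate-early genes (1.96), noncoding RNA (1.84) and the α-cell list (1.83), and it was 1.54 for both ribosomal proteins and potassium channels. It was lowest among those named here for Rab GTPases, at 0.74. It was 0.88 for prohormone processing, 0.92 for the β-cell factors, 1.10 for granule cargo, 1.22 for ER entry and folding and 1.27 for glucose sensing. These differences between lists were not tested.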

How the data were processed

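RNA was measured in 5 WT libraries. The authors' deposited table holds 1 log2 value per gene symbol and library. HOMER, edgeR and the build mm9 stand in the submitters' processing notes. The sources used here name no aligner, counting step or normalization. From the values, which share their highest value and a ladder of top values, they were read as quantile-normalized log2(value + 1). The lowest steps equal means of log2(whole number + 1) over 18 columns. The ladder was therefore read as averaged on the log scale over all RNA libraries, knockouts included, so WT levels depend on those libraries too. Absolute depth is unknown, so no interval from counts is given. All 18 expression columns were matched to samples by name, and 0 were left unmatched. Apart from that ladder, knockout columns and peak lists were not used here.

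Medians, ranks, bands, SDs and SD ratios (500 genes nearest in level, median of 5 or more) were computed in Python 3.11.15 with pandas 2.3.3, and checked on simulated data. Nothing was tested. Linear shares used 2 to the power of the value minus 1. With a ladder averaged on the log scale, they are not shares of reads. Of 654 genes on the 33 lists, 593 were found; the others were not analysed here. A further 50 families were taken by symbol pattern. Promoters are RefSeq (GRCm38.p6), 250 bases before the start; 14721 genes of the table and 72 of the leading 100 had a window. The TATA, CRE, ERSE, GC box and E1 box motifs were searched on both strands.

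Genes were named by rule: the leading 20 over 5 and over 4 libraries; each list's highest 3, its lowest above 0 and those at 0; cell type markers; the 5 steadiest and 10 most variable; each family's highest. Any other gene was picked with its values in view. A few genes within the rule were left out of the text. The members and lists were chosen with earlier results of these data known.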

Additional observations from a re-analysis of the deposited data

Results flagged for a closer look

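In each case below 1 library lay apart from the other 4: its gap to the nearest value, divided by the range of all 5, was above 0.71. Chance flags about 1 in 20 groups of 5. Of 290 genes examined 33 met this, and of 83 lists and families 2 did. These counts cannot be read against that rate, because the genes include the steadiest and most variable ones and acinar markers already known to stand high in replicate 1. A ratio of 1 arises where the other 4 libraries hold 1 shared value. Replicate 1 stood apart in 18 of the genes and replicate 4 in 10.

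Replicate 1 stood apart for the hormones, with ratios of 1 for Iapp, Ins2 and Ins1, which held the same value in the other libraries, and 0.755 for Chgb. For acinar genes, all far higher in replicate 1, the ratios were 0.917 for Pnlip, 0.931 for Cela2a, 0.954 for Cela1, 0.875 for Prss2, 0.852 for Cpa1, 0.867 for Klk1 and 1 for Amy2a5. The mean of the acinar list gave 0.947 and that of the kallikrein family, which holds Klk1, gave 0.907. Casp9 gave 0.942 and was also higher there. Rpl29 (0.754), Snora81 (0.752), Itgav (0.756) and Tgfbrap1 (0.905) were lower in replicate 1, and Med26 (0.963) and Sox10 (1, at 0.78 against 0) were higher.

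Replicate 4 was low for Rpph1 (0.871), Txnip (0.718), H2-K1 (0.827), Trpm5 (0.813), Hist1h4d (0.775), Srp54a (0.828), Gdf3 (0.878) and Esam (0.74), and high for Tmem27 (0.793) and Klkb1 (0.771). Replicate 2 was low for Sars (0.757), Gcg (0.746) and Gpx7 (0.712). Vim was listed at 0 in replicate 3 alone (0.785), and Cdh5 was above 0 in replicate 5 alone (1).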

How the results depend on the processing

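Leaving out each library in turn moved the median SD between 0.23 (without replicate 1) and 0.27. It was 0.24 on log2(value + 10), 0.23 for genes with a median of 8 or more and 0.25 with no filter. The median rank correlation was 0.969 over all genes and 0.951 for genes with a median of 5 or more. With a library left out, list medians moved by more than the spread between libraries for exocytosis (7.78 to 7.97), immune markers (0 to 0.69) and red cell markers (0.74 to 1.53). Within that spread, the median of the disallowed genes ran from 0 to 0.69, of mesenchyme markers from 0.39 to 0.72 and of acinar markers from 1.26 to 1.89. With the mean over libraries in place of the median, exocytosis was at 7.84, immune markers at 0.58, factors of other lineages at 0.19 and retina genes at 0.27. Members above 0 in all libraries rose from 3 to 5 for factors of other lineages without replicate 4, from 3 to 6 for endothelial markers without replicate 3, and from 1 to 2 for mesenchyme markers without replicate 2, 3 or 4. With a value of 2 or more in place of above 0, this count fell to 3 for acinar, 1 each for endothelial, immune, muscle and retina genes, and 0 for mesenchyme and red cell markers. The cause was not tested, beyond the stricter threshold and smaller number of libraries themselves. The other 413 of these recomputed counts and summary values kept within the spread between libraries, or within 1.5 times for counts. With 1 promoter window per gene, chosen after seeing the data, windows with TATAAA among the leading 100 genes fell from 7 to 4. Values per coding length were not run, since no transcript lengths were at hand. No paired analysis was possible because the results come from 1 group with no test. Low values rest on few reads, and an unknown depth limits them.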

Other observations

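Among the genes with the highest ranks, 3 that stand outside the lists were chosen with their values in view. Spc25, a kinetochore gene of dividing cells, was at 11.56, 11.73, 12.35, 12.37 and 11.56, with rank 69, and is the RefSeq neighbour of G6pc2 (rank 7). Dnahc8, an axonemal dynein gene of cilia and sperm, was at 10.97, 10.23, 10.90, 11.84 and 10.24, with rank 164, and is the neighbour of Glp1r. Spc25 was highest in replicates 3 and 4, where G6pc2 was at its lowest, 14.37. Reads that run on from a neighbour cannot be told apart in these values.

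Esr1, the estrogen receptor that tamoxifen binds, was at 11.61, 12.35, 12.17, 11.74 and 11.63. The Cre of these mice is a fusion with a part of that receptor, so reads of the transgene and of the gene cannot be told apart.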
